A study of Homo sapiens with 2 samples.

Results

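The records described here are microRNA hairpins and microRNA host transcripts detected in poly(A) RNA of Caco-2, an established human cell line from a colorectal adenocarcinoma whose cells can take on features of enterocytes. They are the gene symbols that begin with MIR and a digit or with MIRLET7, at a mean of at least 1 RPKM over both libraries. RPKM scales reads by the length of the record and the total of the library. Of 1321 records with such names among 23709 in all, 62 were detected. Symbols ending in HG were kept apart as host records, long transcripts from which microRNAs are cut. This left 7 of 16 host records and 55 of 1305 hairpin records. The members were chosen by their mean RPKM, so their levels are given as a description with no test.

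The study sequenced 2 libraries of Caco-2 cells, with no treatment named beyond a serum-containing DMEM medium with penicillin, streptomycin and ciprofloxacin. One library was made from the poly(A) RNA of total RNA (the mRNA library) and the other from poly(A) RNA bound in complexes of ribosomes and nascent chains (RNC-mRNA). The comparison asks which RNAs are found with ribosomes relative to their level in total RNA. Each RNA population has 1 library, so no difference below has a replicate check and no p-value is given. The labels do not say whether both came from the same culture. Both pool many cells, so fewer cells with an RNA and less of it per cell cannot be told apart. Inserts were 120 to 200 bp long, per the labels' protocols, while the detected hairpin records of known length were 66 to 180 nt long. A strand-preserving step is not named there, so reads of opposite strands cannot be told apart.

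MicroRNAs are short RNAs that guide Argonaute proteins to partly matching mRNAs and lower their stability and translation. Most are transcribed by RNA polymerase II inside a long primary transcript, which can be a non-coding host or an intron or exon of a protein-coding gene. The nuclear enzyme Drosha with its partner DGCR8 cuts out the hairpin, exportin-5 carries it to the cytoplasm, and Dicer trims it to the mature form. Neither the cut hairpin nor the mature microRNA normally carries a poly(A) tail, and primary transcripts are processed in the nucleus. The reads on a hairpin record in these libraries therefore say nothing of the level of the mature microRNA.

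Sequences from RefSeq (build GRCh38.p14) were matched to 46 of the 55 detected hairpin records for mature microRNAs and to 39 for hairpins. A few hairpins are shown whole because each stands for one of the settings described below, with the mature arms in capitals. MIR570 lies in an intron of a long non-coding RNA (chr3:195699401-195699497, plus strand). MIR192, whose product is abundant in intestinal epithelium, lies in an exon of its non-coding host (chr11:64891137-64891246, minus strand). MIR25 lies in an intron of the replication gene MCM7 (chr7:100093560-100093643, minus strand).
MIR570: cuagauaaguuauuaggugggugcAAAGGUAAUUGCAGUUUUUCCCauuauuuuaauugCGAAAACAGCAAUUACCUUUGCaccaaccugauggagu
MIR192: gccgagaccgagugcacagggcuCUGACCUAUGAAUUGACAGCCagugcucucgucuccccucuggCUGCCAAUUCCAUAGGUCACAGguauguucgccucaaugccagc
MIR25: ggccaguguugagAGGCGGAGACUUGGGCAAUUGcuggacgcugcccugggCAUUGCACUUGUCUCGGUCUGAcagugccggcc

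The mature forms below belong to the hairpin records of highest level with an entry, to pairs of hairpins of the same gene, and to microRNAs of detected hosts. Capitals mark the seed, bases 2 to 8, which pairs with target mRNAs. The 66 mature sequences of the detected records held 65 different seeds. The shared one, ACCCGGC, belongs to MIR941-1 and MIR941-2, copies that give the same mature microRNA. MIR3064 and MIR5047, which lie in the same gene, had different seeds.
hsa-miR-514b-3p: aUUGACACcucugugagugga
hsa-miR-663a: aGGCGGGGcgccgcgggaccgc
hsa-miR-3064-5p: uCUGGCUGuuguggugugcaa
hsa-miR-5047: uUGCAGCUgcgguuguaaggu
hsa-miR-1182: gAGGGUCUugggagggaugugac
hsa-miR-1914-3p: gGAGGGGUcccgcacugggagg
hsa-miR-647: gUGGCUGCacucacuuccuuc
hsa-miR-24-3p: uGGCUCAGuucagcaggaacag
hsa-miR-27b-3p: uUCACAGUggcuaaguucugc
hsa-miR-941: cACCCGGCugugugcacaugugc
hsa-miR-210-3p: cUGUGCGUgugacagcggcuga
hsa-miR-22-3p: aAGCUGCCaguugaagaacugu

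The label of the cells was checked against epithelial markers. Of 10 intestinal epithelial markers, 8 had at least 1 RPKM in both libraries, including VIL1, CDX2, EPCAM and KRT8, while KRT20 had 0.977 and 0.05 RPKM. The summed level of the 4 blood markers was 13.8 and 12.8 RPKM, nearly all from CD68, and that of the 3 endothelial markers 4.76 and 2.04 RPKM, against 3545 and 3687 RPKM for the epithelial list. Of the 4 fibroblast markers, 3 were above 1 RPKM in both libraries, with COL1A1 at 46.8 and 26.1 RPKM. Totals worked out from the RPKM values were 9640364 reads for mRNA and 11083302 for RNC-mRNA.

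Host records were lower in the RNC-mRNA library than in the mRNA library, most of them by several fold. Values are given for the mRNA library first. Ratios of RNC-mRNA to mRNA are on the log2 scale, centred so that 0 is the median of the 13402 records of at least 1 RPKM. Brackets hold the exact 95% interval of the ratio from recovered reads, which covers counting error only. Of 7 detected host records, 5 lay at least 2-fold below the median, against 11.8% of all records, and 0 lay at least 2-fold above it, against 1.37%. The median of the 7 was -1.69. Of the 7, 6 are paired with a non-coding (NR) RefSeq record, and of all 1462 detected NR records 35.3% lay at least 2-fold below the median.

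MIR205HG, the host of the epithelial microRNA miR-205, had 25.9 RPKM, against 1.93 RPKM with ribosomes. These levels rest on at least 222 and 19 reads, a relative ratio of -3.64 (-4.47 to -3.03). Among the 7 detected hosts it had the highest mRNA level and the lowest ratio. It is the host record that the table pairs with a protein-coding (NM) RefSeq record.

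MIR210HG, whose microRNA miR-210 is a known product of the hypoxia response, had 11.7 and 1.68 RPKM (-2.69, interval -3.26 to -2.29). MIR17HG, the MYC-regulated host of the miR-17-92 cluster, had 6.35 and 1.08 RPKM (-2.41, interval -2.94 to -2.12). MIRLET7BHG, host of let-7 family members, had 6.95 and 2.03 RPKM (-1.69, interval -2.07 to -1.42). These records rested on at least 260, 307 and 316 mRNA reads and at least 43, 60 and 106 RNC-mRNA reads. MIR600HG had 5.30 and 1.85 RPKM (-1.43, interval -1.79 to -1.17). The intervals of these 4 hosts and of MIR205HG lay wholly beyond the 2-fold line, and none of them overlapped the interval of the median-like host MIR22HG.

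MIR22HG was close to the median. It hosts miR-22 and had 9.11 and 8.23 RPKM on at least 233 and 242 reads. Its ratio was near the median record (-0.11, interval -0.37 to 0.16). MIRLET7DHG, the weakest detected host, had 1.54 and 0.803 RPKM on at least 20 and 12 reads. Its interval spanned both the median and the 2-fold line (-0.82, interval -2.07 to 0.20).

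**Figure D1:**
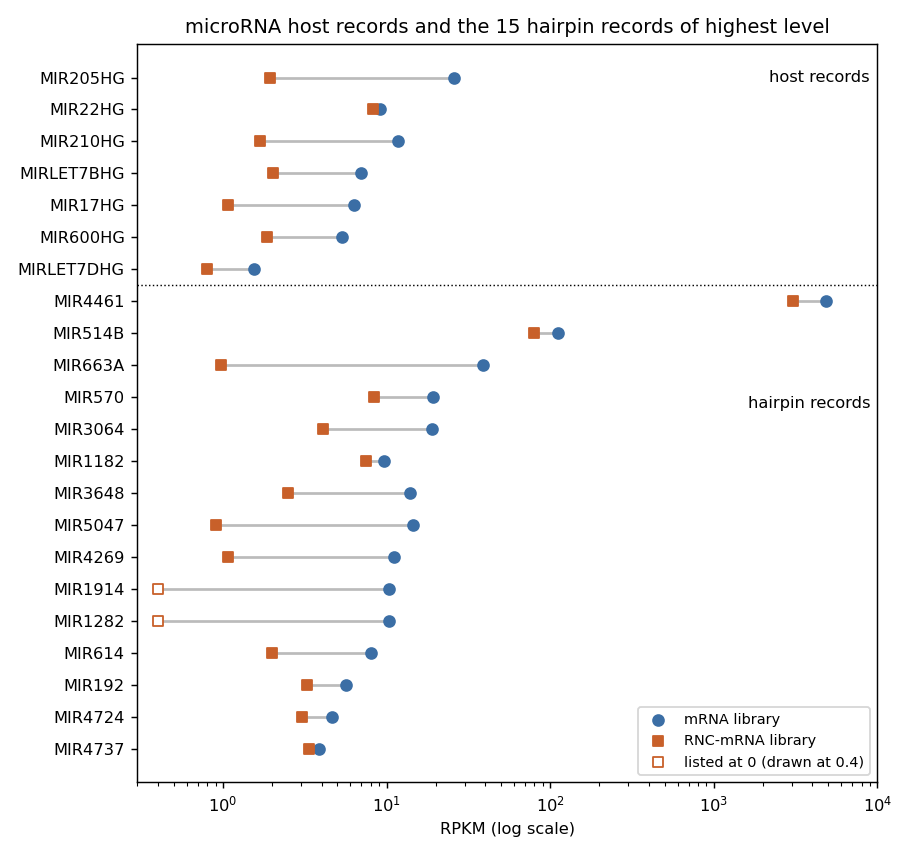
Level in RPKM (log axis) of the 7 detected host records and the 15 hairpin records of highest mean level, as points for the mRNA library (circles) and the RNC-mRNA library (squares), 1 library each. Each of these records is lower in the RNC-mRNA library, and MIR1914 and MIR1282 are listed at 0 there.

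Below the threshold, 9 host records were not detected. MIR143HG was closest, with 1.33 and 0.368 RPKM on at least 116 and 37 reads (-1.57, interval -2.39 to -1.27). MIR181A2HG had 1.68 RPKM on at least 10 mRNA reads and no RNC-mRNA read, with an upper limit of -1.33 for its ratio. MIR31HG went the other way, with at least 4 mRNA reads and 13 RNC-mRNA reads, but its interval spanned the median (1.18, interval -0.16 to 3.61). MIR155HG, MIR100HG, MIR497HG and MIR137HG held as few as 1 to 5 reads in both libraries together. MIR7-3HG and MIR4500HG were listed at 0 in both.

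**Figure D2:**
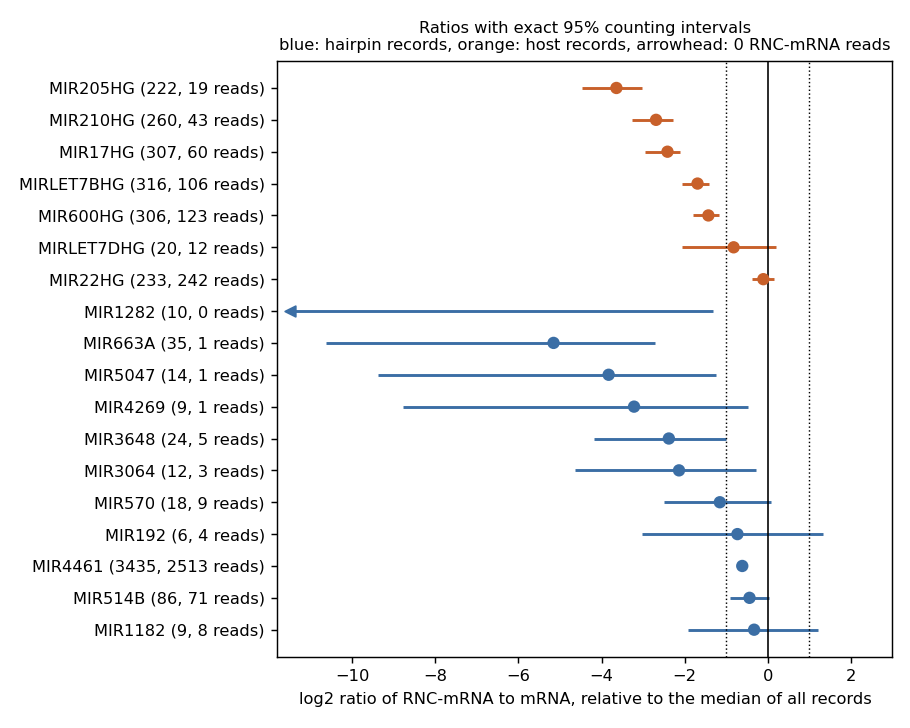
Relative log2 ratio of RNC-mRNA to mRNA (x axis, 0 is the median of all records, dotted lines are 2-fold) for host records (orange) and hairpin records with at least 10 reads in both libraries together (blue). Lines are exact 95% counting intervals from the reads given beside each name, which are minimum values for hosts other than MIR600HG. Among the hosts, 5 intervals lie wholly beyond 2-fold below.

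Hairpin records rested on few reads. Of 1305 hairpin records, 1154 were listed at 0 in both libraries, 93 were above 0 in the mRNA library alone, 25 in the RNC-mRNA library alone and 33 in both. The 55 detected records had a median of 2 mRNA reads and 1 RNC-mRNA read, against 263 and 285 reads for the median of all detected records. Both libraries together gave at most 5 reads for 39 of the 55 and at least 10 reads for 11. A single read on a hairpin of this length is worth about 1 RPKM, so the threshold of 1 RPKM lies at 1 or 2 reads. Just inside it, MIR1304 had 1 read in each library (mean 1.066 RPKM), MIR135A1 had 2 RNC-mRNA reads (mean 1.003 RPKM) and MIR3680-1 had as few as 1 mRNA read (1.017 RPKM). Just outside it, MIR4454 also had as few as 1 mRNA read (0.9974 RPKM), MIR5001 had 1 read in each library (0.9698 RPKM) and MIR1281 had 1 mRNA read (0.9605 RPKM).

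**Figure D3:**
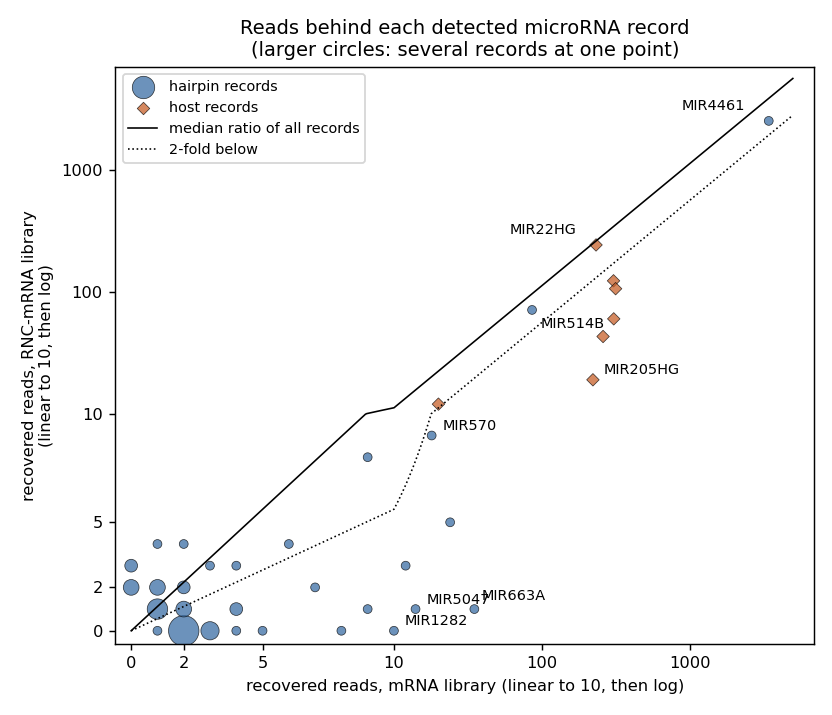
Recovered reads of each detected record in the mRNA library (x axis) and the RNC-mRNA library (y axis), linear to 10 and logarithmic above, for hairpin records (circles, larger where several coincide) and host records (diamonds). Most hairpin records sit at 5 reads or fewer, while 6 of the 7 host records hold at least 222 mRNA reads.

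MIR4461 was the exception. It had 4815 and 3064 RPKM on 3435 and 2513 reads, the 4th and 7th highest level of all records. It held 91.5% and 94.3% of the reads on detected hairpins. Its ratio was -0.61 (-0.69 to -0.54), below the median but within 2-fold. GENCODE release 29 places it in an intron of PCBD2, a dehydratase gene with 8.72 and 5.12 RPKM (-0.72, interval -1.06 to -0.41). The level of the hairpin record is thus far above that of the gene around it.

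MIR514B, a member of an X-linked microRNA family, came next with 112 and 80.1 RPKM on 86 and 71 reads (-0.44, interval -0.91 to 0.03). MIR4461 and MIR514B were the only detected hairpin records with at least 10 reads in each library, and neither lay 2-fold from the median. MIR663A had 39.0 RPKM on 35 mRNA reads and 0.97 RPKM on 1 RNC-mRNA read (-5.15, interval -10.64 to -2.72). It passed the level filter through the mRNA library alone, so its low ratio is a description. MIR3648, with 13.8 and 2.51 RPKM on 24 and 5 reads, was also low (-2.38, interval -4.17 to -1.01).

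Of the 55 detected hairpin records, 32 lay at least 2-fold below the median, 6 at least 2-fold above it and 17 between, against 11.8% and 1.37% of all records below and above, and 35.3% of NR records below. These counts lean on records listed at 0. Of the 32, 20 were listed at 0 in the RNC-mRNA library, and of the 6, 5 were listed at 0 in the mRNA library. The counting interval lay wholly below the median for 9 records, against 30.2% of all records, and wholly above it for 0, against 29.7%. It spanned the median for the other 46. The 20 records at 0 in the RNC-mRNA library passed the level filter through the mRNA library alone. Of the 9, so did MIR663A and MIR5047, along with MIR1914, MIR1282 and MIR647, which are among the 20. The 5 at 0 in the mRNA library passed through the RNC-mRNA library alone. The ratios of these records, and the counts that hold them, are a description. The median over the 55 was -1.92, over the 30 records above 0 in both libraries it was -0.50, and with each 0 set to the floor of 3 reads it was -0.16. A 2-fold difference was therefore not detectable at this depth for most single hairpins.

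Reads summed over hairpins had narrower intervals. These treat every read as drawn at 1 shared ratio and leave out the spread between hairpins. They do not measure how well a ratio holds across hairpins. All 1305 hairpin records held 3833 and 2690 reads, a pooled ratio of -0.67 (-0.75 to -0.60) that is mostly MIR4461. Without it they held 398 and 177 reads (-1.33, interval -1.60 to -1.07). Without the 3 records of most reads, MIR4461, MIR514B and MIR663A, the others held 277 mRNA reads and 105 RNC-mRNA reads, spread over 148 of 1302 records, a pooled ratio of -1.56 (-1.90 to -1.23). The records under the threshold of 1 RPKM gave a like value on their own, with 80 and 26 reads (-1.78, interval -2.48 to -1.13). The genes around the latter had a median ratio of 0.01.

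Of the other single hairpins of high level, MIR570 had 19.2 and 8.37 RPKM on 18 and 9 reads (-1.15, interval -2.50 to 0.07). MIR4269, which lies opposite an intron of the histone deacetylase gene HDAC4, had 11.1 and 1.07 RPKM on 9 and 1 reads (-3.22, interval -8.79 to -0.48). MIR1282 had 10.3 RPKM on 10 mRNA reads and no RNC-mRNA read, with an upper limit of -1.33 for its ratio. Its place in the list came through the mRNA library alone, so this low ratio is a description. MIR1282 lies in an intron of a gene on its own strand that is not in the table. It also lies opposite a coding exon of SERF2, whose level was 79.3 and 78.1 RPKM (0.02). MIR192 had 5.66 and 3.28 RPKM on 6 and 4 reads, MIR4724 had 4 and 3 reads, and MIR4737 had 3 reads in each library. The intervals of these last 3 spanned the median.

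Hairpins with ratios above the median all rested on 5 reads or fewer in both libraries together, apart from MIR4800 with 2 and 4 reads. MIR572 had 1 and 4 reads (1.75, interval -1.50 to 7.46). MIR4785 and MIR1909 were listed at 0 in the mRNA library and had 3 RNC-mRNA reads each. MIR3189, with 0 and 2 reads, lies in an intron of the stress-induced cytokine gene GDF15, which was itself higher in the RNC-mRNA library (22.8 and 78.7 RPKM, 1.82). None of the intervals of these hairpins excluded the median.

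Position in genes was read from GENCODE release 29, which is on another build than the hg19 of the table, so gene names and exon or intron were taken and no coordinates. An exon of any transcript of the gene counted, including transcripts that retain an intron. Hairpins at an exon edge, which do not lie wholly in an exon, were counted with exons. Where several genes on the same strand held a hairpin, the gene of highest level was taken. Of the 55 detected hairpins, 20 lay in an exon of a gene on the same strand (36.4%), against 202 of all 1305 hairpin records (15.5%). Another 23 lay in an intron of such a gene (41.8%, against 49.3% of all), and 6 lay outside genes (10.9%, against 22.1%). Among hairpins in genes of at least 10 RPKM, 33 of 83 in an exon had a read in either library (39.8%), and 40 of 197 in an intron did (20.3%). The detection rule used levels and not positions, and how far gene level differs between these groups was not tested.

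Hairpin records nearly always had lower levels than the genes they lie in. A gene on the same strand was in the table for 35 detected hairpins, and the hairpin was lower than the gene in 34, with MIR4461 as the exception. Taking the gene of highest level where several held a hairpin leans toward lower hairpins, here and in the sums over genes below. How much it did so was not tested. The median hairpin had 9.7% of the level of its gene, 13.2% in exons and 6.92% in introns. Spearman's rho between the levels was 0.163 across these 35 pairs, which share libraries and, for exons, may share reads. The hairpin MIR614 came closest to its gene, with 8.07 and 2.01 RPKM against 8.99 and 10.1 RPKM for GPRC5A, a retinoic acid-induced receptor gene. MIR1182 had 9.62 and 7.44 RPKM against 20.8 and 21.3 RPKM for FAM89A. At the other end, MIR483 in an intron of IGF2, a fetal growth factor gene with 5280 and 4698 RPKM, held 1 and 2 reads.

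**Figure D4:**
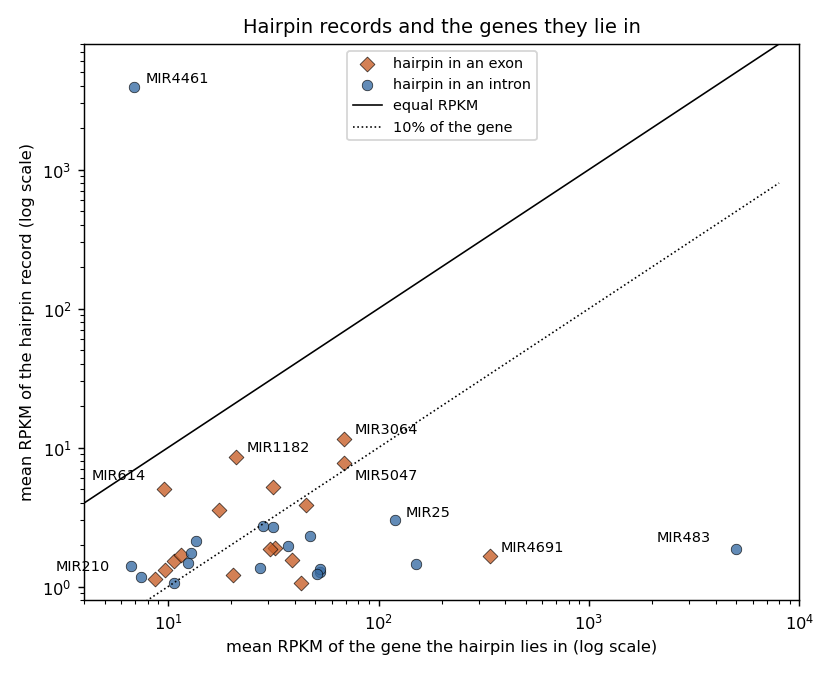
Mean RPKM of 35 detected hairpin records (y axis, log) against the mean RPKM of the gene on the same strand that they lie in (x axis, log), for hairpins in exons (diamonds) and introns (circles). MIR4461 alone lies above the line of equal levels, and the median hairpin has 9.7% of the level of its gene. Where several genes held a hairpin, the one of highest level is drawn.

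The same holds with undetected hairpins included. The 155 hairpins in exons of genes in the table, MIR4461 aside, held 88 mRNA reads, where 6215 would be held at the level of their genes (1.42%), and 48 RNC-mRNA reads of 7192 (0.667%). The hairpin MIR4485 in MTRNR2L8 accounts for 1697 and 2023 of these. Hairpins at an exon edge were counted at their whole length, and 27 of them in protein-coding genes account for 806 and 976. In coding exons alone, 9 hairpins held 1 mRNA read of 204. Hairpins in introns held 72 of 10049 and 19 of 11310 reads. How reads that fit both a hairpin record and an overlapping gene were counted is not stated in the labels, and its part in these low shares was not tested.

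The hairpins of detected hosts were read against this background. All 6 hairpins in exons of MIR17HG were listed at 0 in both libraries, where 28.9 mRNA reads would be held at the level of the host. The 3 in exons of MIRLET7BHG, let-7 members among them, were also at 0, where 16.7 would be held. MIR22, in an exon of MIR22HG, had 1 read in each library. MIR210, in an intron of MIR210HG, had 3 mRNA reads and 0 RNC-mRNA reads. MIR205, at an exon edge of MIR205HG, had 1 read in each library and was below the threshold. MIR22 and MIR210 were detected, and no let-7 hairpin record was.

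Some genes held 2 detected hairpins. DDX5 encodes an RNA helicase that is itself a cofactor of Drosha, and MIR3064 (chr17:64500774-64500839, minus strand) lies in it together with MIR5047. MIR3064 had 18.9 and 4.1 RPKM on 12 and 3 reads (-2.14, interval -4.63 to -0.27). MIR5047 had 14.5 and 0.902 RPKM on 14 and 1 reads (-3.83, interval -9.37 to -1.25). Together they held 26 and 4 reads (-2.86, interval -4.84 to -1.34), while DDX5 had 74.5 and 62.2 RPKM (-0.22, interval -0.30 to -0.14). The interval of the pair lay wholly below that of the gene. MIR5047 passed the level filter only through the mRNA library, so the low ratio of the pair is a description.

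UCKL1, a uridine kinase gene, also held a pair. MIR1914 in its untranslated exon had 8 mRNA reads (10.4 RPKM) and MIR647 in its intron had 5 (5.4 RPKM), and neither had an RNC-mRNA read. Both passed the level filter through the mRNA library alone, so their low ratios are a description. The upper limit for the 13 reads together was -1.77, and UCKL1 had 36.5 and 26.5 RPKM (-0.42, interval -0.58 to -0.26). MIR24-1 and MIR27B in C9orf3 had 2 mRNA reads each and 0 RNC-mRNA reads, with an upper limit of 0.44 for the pair, so no difference from C9orf3 (-0.06) was detectable. The copies MIR941-1 and MIR941-2 in DNAJC5 held at least 4 and 1 reads together (interval -7.78 to 1.17), and reads that fit both cannot be assigned to one.

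Reads were also summed over all hairpins in genes of the table, whether detected or not and without MIR4461, so that the level filter took no part. The 549 in introns held 72 and 19 reads (-2.08, interval -2.90 to -1.34), wholly below the median ratio of their genes, 0.03. The 155 in exons held 88 and 48 reads (-1.04, interval -1.58 to -0.51), and the median ratio of their genes was -0.11. The value in exons rested in part on 1 gene. Without the DDX5 pair it was -0.66 (-1.25 to -0.08), an interval that only just held the median of the genes, -0.10. For introns and exons alike, the sum weights hairpins by reads, while the median of the genes does not. These are unlike measures, and the reads came from 53 of the 549 hairpins in introns and 46 of the 155 in exons. The intervals also leave out the spread between hairpins. The values therefore do not settle whether hairpins in introns or in exons differed from their genes.

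MIR25 in MCM7, a helicase subunit of DNA replication, had 4.94 and 1.07 RPKM on 4 and 1 reads against 132 and 108 RPKM for the gene. MIR429, of the epithelial miR-200 family, lies outside annotated genes and also had 4 and 1 reads. The intervals of MIR25 and MIR429 spanned the median (-7.78 to 1.17 for each). MIR612 lies in NEAT1, a nuclear paraspeckle RNA, and had 3 and 0 reads, while NEAT1 itself had 54 and 23.4 RPKM (-1.17, interval -1.28 to -1.06).

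Most genes that make and use microRNAs lay within 2-fold of the median. Of 44 genes of microRNA biogenesis and silencing, all 44 were detected, 1 lay at least 2-fold below the median (11.8% of all records did) and 0 at least 2-fold above (1.37%), with a median of 0.06. The counting interval lay wholly below the median for 12 and wholly above it for 19, against 30.2% and 29.7% of all records. These shares are near the background or, above the median, somewhat over it, and no test of the difference from the hosts was made.

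In the nucleus, DROSHA had 16.5 and 19.7 RPKM (0.30, interval 0.07 to 0.52) and its RNA-binding partner DGCR8 had 13.1 and 10.2 RPKM (-0.32, interval -0.90 to 0.25). Reads of both are minimum values, at least 57 and 51 for DGCR8, so these intervals may be too wide. Whether DGCR8 differs from the median is thus not settled. The export receptor XPO5 was at the median (21 and 21.1 RPKM, 0.05). DICER1 had 6.86 and 8.42 RPKM (0.33) and its partner TARBP2 had 22.7 and 29 RPKM (0.39). LIN28B, which blocks let-7 processing, had 4.62 and 7.16 RPKM (0.66, interval 0.44 to 0.90), among the highest of the list.

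The Argonaute genes differed among themselves. EIF2C2, the older name of AGO2, which encodes the slicing Argonaute, had 5.93 and 9.87 RPKM and the highest ratio of the list (0.76, interval 0.52 to 1.03). EIF2C1 (AGO1) and EIF2C3 (AGO3) were both at 0.22, and EIF2C4 (AGO4) had 3.38 and 2.12 RPKM (-0.61, interval -1.06 to -0.21). The intervals of EIF2C2 and EIF2C4 did not overlap. The Argonaute partners TNRC6A (-0.35), TNRC6B (-0.27) and TNRC6C (-0.15) were below the median, the last with an interval that spanned it.

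At the ends of the list, the decapping helicase gene DDX6 stood at 0.65 (23.1 and 35.3 RPKM). The deadenylase subunit PAN2 was lowest, with 6.91 and 3.04 RPKM (-1.12, interval -1.41 to -0.89), followed by the helicase MOV10 (29.5 and 15.1 RPKM, -0.93) and EIF2C4. The most abundant members were the chaperone HSPA8 (998 and 1166 RPKM, 0.26) and the poly(A)-binding protein PABPC1 (490 and 556 RPKM, 0.22).

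**Figure D5:**
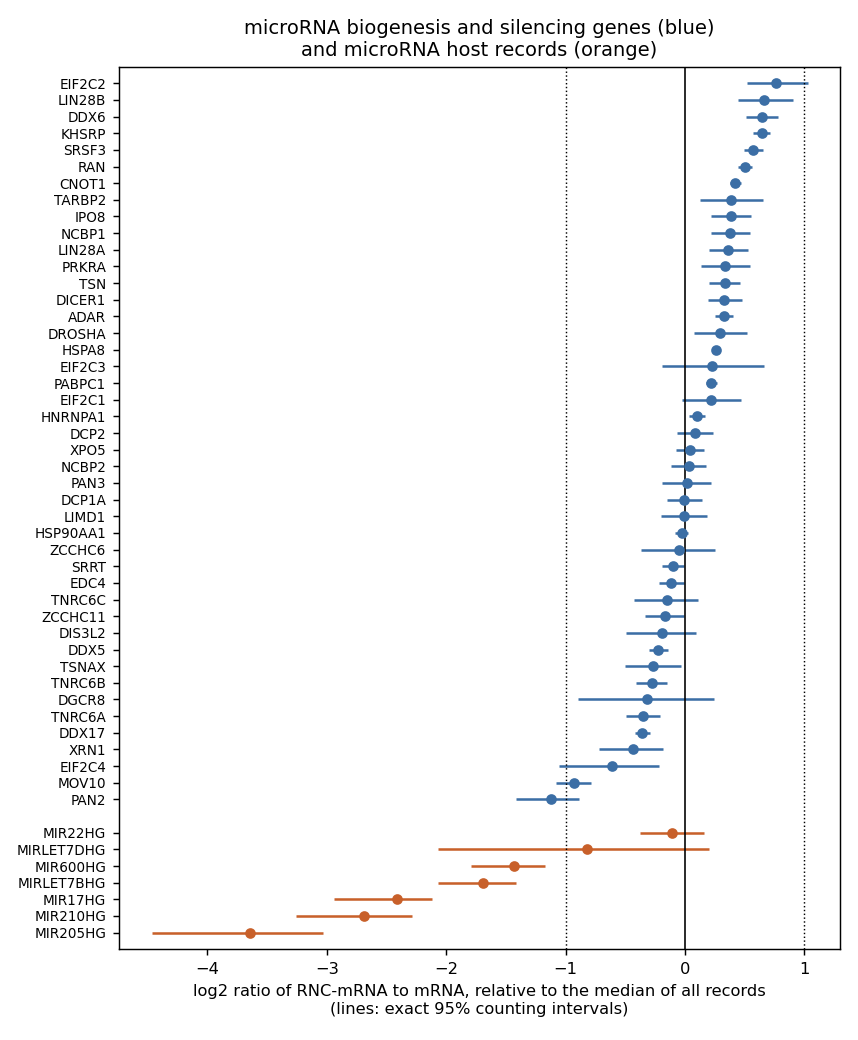
Relative log2 ratio of RNC-mRNA to mRNA (x axis, 0 is the median of all records) for 44 microRNA biogenesis and silencing genes (blue) and 7 host records (orange), with exact 95% counting intervals as lines. The pathway genes lie between -1.12 and 0.76, and 5 host records lie below -1.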

How the data were processed

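The authors deposited 1 table of RPKM values, per the file headers, with 1 column for each of 2 libraries and 23709 RefSeq records. The submitters' processing notes name hg19; mapping and counting software, and the handling of reads that fit several records, are not given in the sources used here. From these values, each library's total was set to the integer that gave the most records of known length whole reads, within rounding at 7 digits and a relative error of 2e-07: 2003 records for mRNA (558 at the next best total) and 1758 for RNC-mRNA (332). Reads followed from RefSeq or GENCODE release 29 lengths, which gave whole reads for 37 and 14 of the 55 detected hairpins. Otherwise the fewest whole reads at a length of at least 50 nt were used, and these are minimum values, whose intervals may be too wide. This holds for every detected host but MIR600HG and for most pathway genes. Tested on simulated data, totals were recovered exactly, as were the reads of 88.5% of 600 records; 11.2% came out lower and 0.3% higher. Ratios are log2((RNC-mRNA + 0.1)/(mRNA + 0.1)), which understates changes of low records that are above 0 in both libraries. Where a library is at 0, the size of the ratio depends on the value added. MIR1914, with 8 and 0 reads, was at -6.67, and at -3.47 with 1 RPKM added. Intervals are Clopper-Pearson (scipy 1.17.1, Python 3.11.15) and, as the labels give 12 PCR cycles and name no molecular identifiers, cover counting error only. With 1 library a group, at least 2-fold from the median stood in for a test.

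Members and lists were chosen with earlier results of these data known. The rule names detected hosts, the 15 hairpins of highest mean level, the 5 highest and 5 lowest ratios among hairpins with at least 10 mRNA reads, detected let-7 hairpins, 3 records on each side of the threshold, detected pairs within 10 kb, hairpins found in mitochondrial or ribosomal RNA, the genes around these, and 13 pathway genes with the 2 most abundant, 3 highest and 3 lowest in ratio. MIR22, MIR25, MIR205, MIR210, MIR429, MIR483, MIR572, MIR612, MIR1909, MIR3189, MIR4485, MIR4785, MIR4800 and the undetected hosts were chosen after their values were seen. No hairpin sequence shared 20 letters with mitochondrial or ribosomal RNA in GENCODE, among the 39 of 55 with a hairpin sequence. The other 16, MIR4461, MIR514B, MIR663A, MIR3648 and MIR5047 among them, had no hairpin sequence and were not searched. Alternatives were other pseudocounts, filters, zeros, read minimums and centres.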

Additional observations from a re-analysis of the deposited data

How the results depend on the processing

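With 1 library a group, no library could be left out, and no paired analysis was possible because each group has 1 sample and the result comes from no test. The 5 low hosts stayed 5 under both other pseudocounts, both other centres, a minimum of 1 RPKM or of 10 reads in each library and without zeros; they were 2 of 3 at a mean of at least 5 RPKM and 8 of 14 with no filter, where 1 host lay 2-fold above. Counts of hairpins depended on the filter. At least 2-fold below were 9 of 12 at a mean of at least 5 RPKM, 102 of 151 with no filter beyond a value above 0 in either library, 9 of 26 at 1 RPKM in both libraries, 12 of 30 without zeros, 0 of 2 at 10 reads in each library, and 14 of 55 with zeros set to 3 reads, an alternative chosen after seeing the data. At least 2-fold above, the same settings gave 0, 26, 1, 1, 0 and 2. The median of hairpins moved to -0.42 at 1 RPKM in both libraries and to -0.16 with zeros at 3 reads, was -3.42 for all records above 0 and -2.34 at a mean of 5 RPKM, and was -1.15 with 1 hairpin for each gene or cluster. Members detected were 15 at a mean of 5 RPKM, 165 with a value above 0 in either library, 32 at 1 RPKM in both, 37 without zeros and 9 with 10 reads in each. With a pseudocount of 1 RPKM, 0 pathway genes lay 2-fold below. Leaving out hairpins found in mitochondrial or ribosomal RNA was not run, since 16 of 55 had no hairpin sequence to search and no other matched. Where a count moved other than through fewer or more records, the cause was not tested. Leaving out MIR4461, also added after seeing the data, moved the median to -1.99. Sums over hairpins of any level, without MIR4461 or DDX5, were also chosen after seeing the data. Depth limits single hairpins: 46 of 55 intervals spanned the median.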
